A study of Mus musculus with 9 samples.

Results

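Collagen, basement membrane and meningeal genes were followed across the genotypes of a conditional Zbtb7a series in mouse embryonic cortex. The set holds 8 genes, Col15a1, Col3a1, Col4a1, Col4a2, Col6a2, Nid1, Bgn and Gjb2, of 1030 distinct genes that the authors listed in at least 1 of 3 comparisons. The genes were chosen by name with their fold changes in these comparisons already known, so those values are given here as a description and no test of them was made. All 8 are listed as higher in cHet than in cKO cortex, 1 of them (Gjb2) is also listed as lower in cKO than in WT, and 0 are listed between cHet and WT.

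RNA sequencing was done on cortices at embryonic day 12. The cHet embryos (n = 3) carried Emx1 Cre/+ and Zbtb7a fl/+, the cKO embryos (n = 3) Emx1 Cre/+ and Zbtb7a fl/fl, and the WT embryos (n = 3) Emx1 Cre/+ and Zbtb7a +/+. Cre is therefore present in all 3 groups, WT included, and it is driven by Emx1, which is active in progenitors of the dorsal telencephalon. The series text gives 2 litters and the labels do not assign embryos to them, so litter and genotype cannot be told apart. The labels name each library as a separate animal.

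The matrix encoded by these genes is made mainly around the neural tissue. A basement membrane is a thin sheet in which a laminin network and a type IV collagen network are joined by nidogens and heparan sulfate proteoglycans. In the embryonic cortex it lies under the meninges, where the endfeet of radial glia attach to it, and around the growing blood vessels. Fibrillar and microfibrillar collagens are secreted chiefly by meningeal fibroblasts and perivascular cells, which arise from neural crest and mesoderm, outside the dorsal telencephalic lineage.

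The values are the authors' tables of group comparisons. Each holds a log2 fold change, its standard error (SE) and an adjusted p-value from DESeq2, and a gene is called listed where that adjusted p was under 0.05. Fold changes are named as 1 group over another and given as log2 value ± SE, from 3 libraries a group. Values per library and expression levels were not analysed here, so the spread between embryos, the depth and the level of each gene are unknown, and the labelled tissue could not be checked against its markers by level. Zbtb7a itself is listed in 0 of the 3 tables, so the genotypes are not checked by it here.

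The 5 collagens share a coding repeat that comes with being collagens, so the choice by name fixed it in advance. Collagen chains wind into a triple helix in which glycine recurs at steps of 3 residues, and glycine is encoded by GGN. The longest unbroken run of codon triplets that begin with GGN was 344 in Col3a1, 87 in Col6a2, 66 in Col4a2, 40 in Col4a1 and 30 in Col15a1. It was 2 in Nid1, 1 in Bgn and 1 in Gjb2, none of which encodes a collagen. The stretches below are the first 63 bases of the longest run in Col3a1, Col4a1 and Col15a1, read from the GENCODE M21 transcripts on the coding strand, with the GGN codon that opens each triplet in capitals; GGN codons at other places in a triplet stay in lower case. They are shown because they make visible what joins the fibrillar, network and basement membrane-zone collagens of the set.
Col3a1: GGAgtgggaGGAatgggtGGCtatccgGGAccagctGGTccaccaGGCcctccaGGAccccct
Col4a1: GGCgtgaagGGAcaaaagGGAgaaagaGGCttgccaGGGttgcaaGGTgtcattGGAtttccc
Col15a1: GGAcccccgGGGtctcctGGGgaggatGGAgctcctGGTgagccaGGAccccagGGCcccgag
They begin at coding base 490 of Col3a1, 127 of Col4a1 and 1885 of Col15a1, counted from the A of the start codon. Runs of at least 6 such triplets covered 73.2% of the codons of Col3a1, 79.6% in Col4a1 and 74.5% in Col4a2, against 31.9% in Col6a2 and 24.1% in Col15a1. The type IV chains thus had a high share with short runs, that is, many breaks in the repeat, and Col3a1 had nearly all of it in 1 run.

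Between cHet and cKO cortices, all 8 genes were higher in cHet, with ratios from 1.65 to 2.75. By the authors' deposited table, 417 of 13375 tested genes (3.12%) were higher in cHet, and since this comparison chose the genes, nothing is read from their count. The median log2 fold change of the 8 genes was 0.97, or a ratio of 1.96, from the authors' deposited table, beside 0.50, or 1.42, over all 417 genes higher in cHet. Their SE was also larger, with a median of 0.25 against 0.15 for those 417 genes in the authors' deposited table. A gene was listed here only with an absolute statistic above 2.91, so a larger SE requires a larger fold change. The fold changes were also known when the genes were chosen, and nothing is read from the higher median. In bulk tissue, the number of cells of a type in the sample and the RNA per cell cannot be told apart, and neither was tested. For the members other than Gjb2, no comparison with WT lists a change. A lower value in cKO is thus not told apart from a higher one in cHet.

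Type IV collagen is the network of every basement membrane, and mutations in its main chains cause fragile small vessels in mice and people. Col4a2 (ENSMUSG00000031503) had a log2 fold change of 1.07 ± 0.23 in cHet over cKO in the authors' deposited table, with an adjusted p of 0.00126. Col4a1 (ENSMUSG00000031502), whose product joins that of Col4a2 in 1 heterotrimer, had 0.98 ± 0.23 and an adjusted p of 0.00314, by the authors' deposited table. The difference between the 2 genes was 0.09 on the log2 scale, less than either SE. The other type IV chain genes, Col4a3, Col4a4, Col4a5 and Col4a6, were in none of the tables.

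Col4a1 and Col4a2 lie head to head on chromosome 8 (mm10). Col4a1 runs on the minus strand from 11198423 to 11312826 and Col4a2 on the plus strand from 11312805 to 11449287, so that their annotated 5′ ends overlap by 22 bases. Bases beside that overlap are shown because they lie before the Col4a2 start and, on the other strand, within the annotated Col4a1 gene. They span chr8:11312773-11312802 (GRCm38.p6, RefSeq promoter table), with a CCAAT box and the C-rich element CCCTCCCC in capitals, first on the strand of Col4a2 and then on that of Col4a1.
Col4a2 strand: CCAATttgttggcgctgccCCCTCCCCtcg
Col4a1 strand: cgaGGGGAGGGggcagcgccaacaaATTGG
The CCAAT box begins 32 bases before the Col4a2 start and the C-rich element 13 bases before it. The C-rich element lies in the 300-base windows of both genes. The CCAAT box shown lies in that of Col4a2 alone, and the window of Col4a1 holds another one, 145 bases before its start. A match describes letters and does not show that a factor binds there.

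Col15a1 encodes type XV collagen, which sits where basement membranes meet the fibrillar matrix, including around vessels. Col15a1 (ENSMUSG00000028339, chromosome 4 from 47208161 to 47313167) had a log2 fold change of 1.41 ± 0.27 in the authors' deposited table, a ratio of 2.65 with a 95% interval from 1.83 to 3.83, and an adjusted p of 0.000129. Its rank was 3 by fold and 2 by adjusted p among the 417 genes higher in cHet. Nid1 encodes nidogen, the link between laminin and type IV collagen. Nid1 (ENSMUSG00000005397, chromosome 13 from 13437551 to 13512269) had 0.73 ± 0.22 in the authors' deposited table, with an adjusted p of 0.0282.

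Col3a1, Col6a2 and Bgn belong to the interstitial matrix made by fibroblasts. Type III collagen is a fibrillar collagen and the ligand of the receptor Adgrg1 on radial glial endfeet at the pial surface. Col3a1 (ENSMUSG00000026043, chromosome 1 from 45311538 to 45349706) had 0.97 ± 0.26 in cHet over cKO in the authors' deposited table, with an adjusted p of 0.0138, and Adgrg1 is in none of the tables. Col6a2 encodes a chain of the beaded type VI microfibrils. Col6a2 (ENSMUSG00000020241, chromosome 10 from 76595762 to 76623630) had 0.82 ± 0.26 and an adjusted p of 0.0344, by the authors' deposited table, and its partner chains Col6a1 and Col6a3 were not listed. Biglycan, the product of Bgn, is a small proteoglycan that binds collagen fibrils and TGF-beta. Bgn (ENSMUSG00000031375, chromosome X from 73483602 to 73495933) had 0.72 ± 0.20 in the authors' deposited table, with an adjusted p of 0.0168.

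Gjb2 is the member that encodes no matrix protein. Its product, connexin 26, forms gap junction channels, is found in the leptomeninges and has also been described in embryonic cortical progenitors. Gjb2 (ENSMUSG00000046352, chromosome 14 from 57098600 to 57104702) had a log2 fold change of 1.46 ± 0.50 in cHet over cKO in the authors' deposited table. That is a ratio of 2.75 with a 95% interval from 1.39 to 5.44, the largest fold and the largest SE of the 8. The adjusted p of 0.0497 places Gjb2 just inside the threshold in the authors' deposited table, whose highest value is 0.0499, and genes just outside it were not analysed here.

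Among the 8 genes, the order of the fold changes was Gjb2, Col15a1, Col4a2, Col4a1, Col3a1, Col6a2, Nid1 and Bgn. Of the 28 pairs of genes, 1 differed by more than 2 combined SE, Col15a1 and Bgn, with SEs treated as independent although all genes come from the same libraries. Neighbours in the order differed by less than their combined SE, although Col15a1 and Col4a2 differed by 0.34, more than the SE of either. By fold, 6 of the 8 were among the top 41 of the 417 genes higher in cHet, and Nid1 and Bgn ranked 50 and 53. These ranks, and those of Col15a1 above, rest on values known when the genes were chosen, and nothing is read from them.

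**Figure D1:**
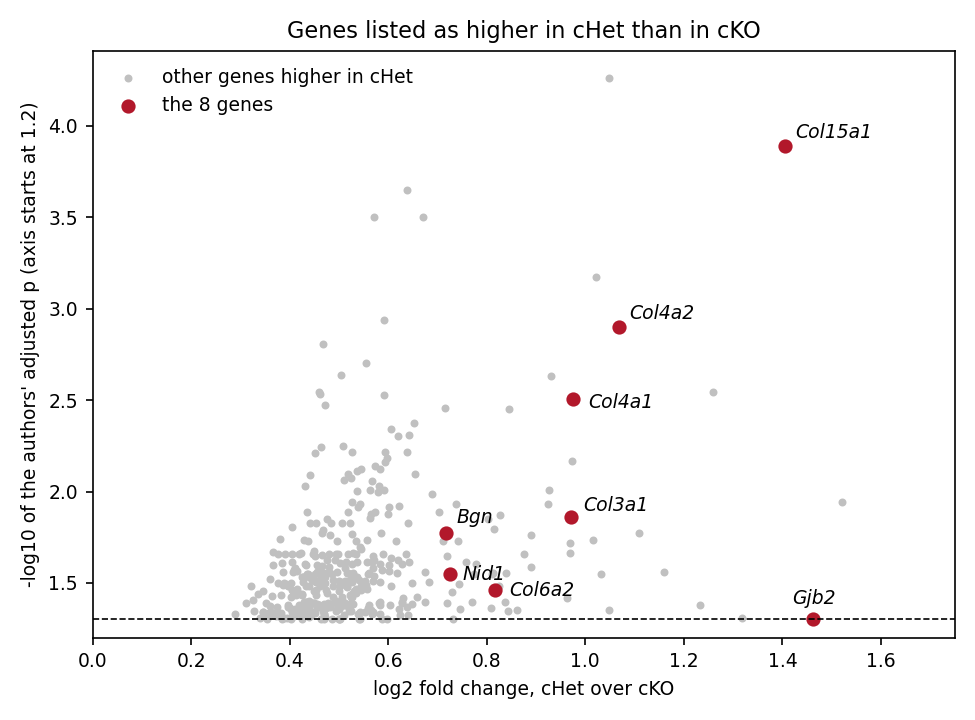
Each point is 1 of the 417 genes listed as higher in cHet than in cKO, with the log2 fold change on the x axis and the −log10 of the authors' adjusted p on the y axis, which starts at 1.2; the dashed line marks 0.05. The 8 genes, in red, lie from 0.72 to 1.46 on the x axis, right of the median of 0.50, with Col15a1 highest and Gjb2 on the line. Their fold changes were known when they were chosen.

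Between cKO and WT cortices, Gjb2 was the member listed, and it was lower in cKO. The log2 fold change of Gjb2 in cKO over WT was -2.27 ± 0.50 in the authors' deposited table, a ratio of 0.207 with a 95% interval from 0.105 to 0.407 and an adjusted p of 0.0328. In that comparison 3 of 26976 tested genes (0.0111%) were listed as lower in cKO. The other 7 genes were not listed. By the same rule of tables and directions, Tdg was the other gene listed as lower in cKO than in WT and higher in cHet than in cKO, with a log2 fold change of 1.05 ± 0.19 in cHet over cKO in the authors' deposited table. Both comparisons share the cKO libraries, so the values of Gjb2 in them are not independent.

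The bases before the Gjb2 start are shown because Gjb2 was listed in 2 comparisons. They are chr14:57104703-57104952 on the minus strand (GRCm38.p6, RefSeq), with matches to the GC box GGGCGG on either strand in capitals.
Gjb2: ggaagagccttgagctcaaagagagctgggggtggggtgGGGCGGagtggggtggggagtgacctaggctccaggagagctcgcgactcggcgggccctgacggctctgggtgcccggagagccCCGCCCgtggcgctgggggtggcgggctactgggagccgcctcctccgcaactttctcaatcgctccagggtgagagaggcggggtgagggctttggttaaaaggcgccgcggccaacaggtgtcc

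Between cHet and WT cortices 0 of the 8 genes were listed, where 248 of 15465 tested genes (1.60%) were in the authors' DESeq2 test; how many of the 8 had an unadjusted p under 0.05 was not analysed here. With so low a share over all tested genes, nothing is read from the 0 of 8. A gene that is not listed is not shown to be unchanged. Given the numbers of tested and listed genes, a tested gene stayed out of this table with an absolute statistic of at most 3.35, and out of cKO against WT with at most 4.43. The SE hardly depended on the comparison in the genes listed in 2 of them. Over the 190 genes listed in both cHet tables the ratio of the 2 SEs had a median of 0.999 and ran from 0.988 to 1.01. For cKO over WT beside cHet over cKO, 3 genes could be compared, with ratios from 0.988 to 0.9996. The limits for cKO over WT thus rest on a check in few genes. With each member's own SE, the fold change of Col15a1 in cHet over WT could reach 0.91 on the log2 scale without being listed, and that of Bgn 0.66.

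The limits can be set beside the cHet over cKO values, if the 3 comparisons come from 1 unshrunken fit and the genes entered each adjustment. The fitted log2 fold changes then add up, and each gene keeps a range in the comparisons that do not list it. For Col15a1 the fitted value lay between 0.20 and 0.91 in cHet over WT and between -1.21 and -0.49 in cKO over WT. For Col4a2 the ranges were 0.03 to 0.78 in cHet over WT and -1.04 to -0.28 in cKO over WT. The range in cKO over WT lay below 0 for 5 of the 7 genes, Col15a1, Col4a2, Col4a1, Col3a1 and Bgn, and reached 0.04 for Col6a2 and 0.005 for Nid1. The range in cHet over WT lay above 0 for 2 of the 7, Col15a1 and Col4a2, and held 0 for the other genes. A range lies on 1 side of 0 where the gene's statistic in cHet over cKO passes the limit of the other comparison with WT. That limit was 3.35 for cHet over WT and 4.43 for cKO over WT. The counts of 5 and 2 thus follow from these limits and from values known when the genes were chosen, and nothing is read from them. Gjb2 has an implied value in cHet over WT of -0.81 ± 0.50, a ratio of 0.57, as the sum of its other log2 fold changes. That SE was calculated with an assumed correlation of 0.5 in absolute value between the comparisons that share cKO. Treated as independent, they gave an SE of 0.71. The tables hold no gene listed in all 3 comparisons on which this addition could be checked, and the ranges are of fitted values, not intervals for the true differences.

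**Figure D2:**
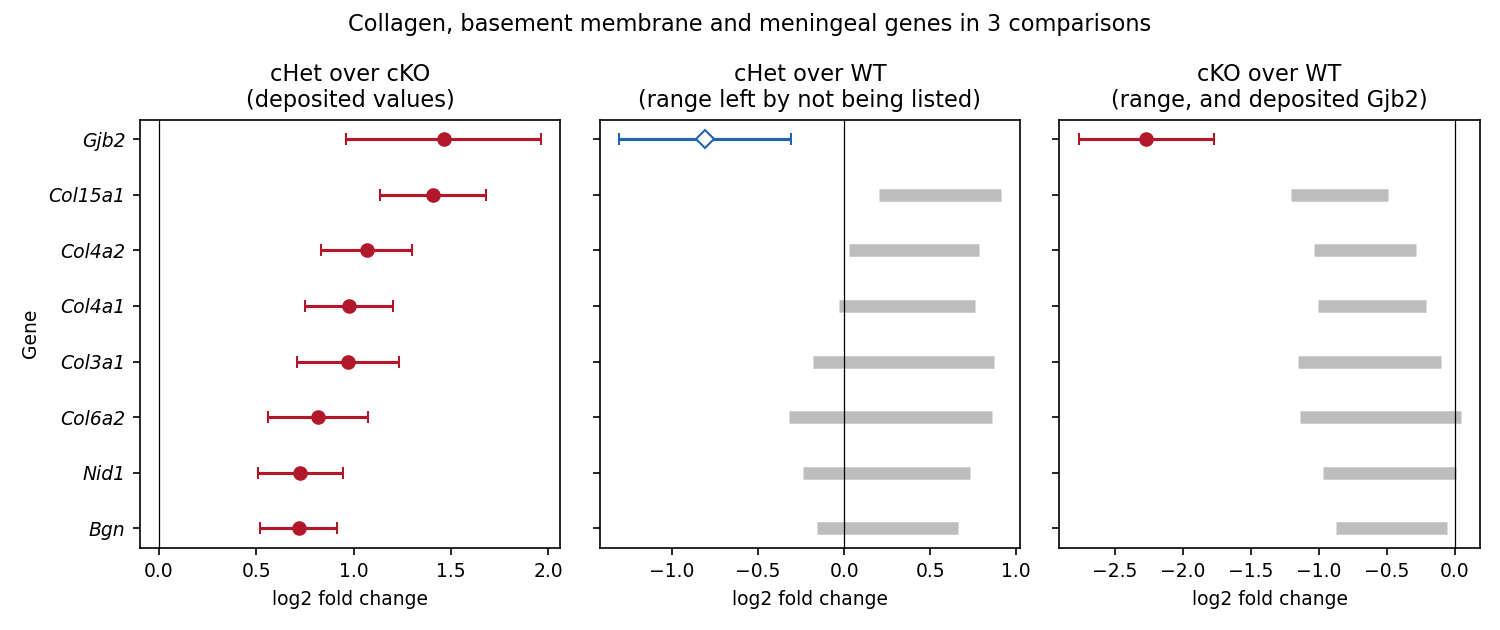
Red points and bars show the log2 fold change and SE of each gene as deposited, grey bars the range of fitted values left for genes that a comparison does not list, and the open diamond the implied Gjb2 value with its SE. The SE of the diamond rests on an assumed correlation of 0.5 in absolute value. All 8 genes are above 0 in cHet over cKO, and in cKO over WT the grey bars lie below 0 or end within 0.05 above it. Where a grey bar ends follows from the cHet over cKO value and the limits for not being listed, so nothing is read from its side of 0.

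Other genes of the basement membrane were higher in cHet than in cKO as well. Of 30 annotated basement membrane genes, 9 were listed as higher and 0 as lower, and without the 4 members in that list 5 of 26 were higher (19.2%, beside 3.12% of all tested genes). Shares of lists are over annotated genes, since which of them were tested is unknown. The lists, here and below, were chosen with earlier results of these data known. Their shares are thus a description, also without the members, and nothing is read from their distance to the share of all tested genes. Lama4 encodes the laminin alpha chain typical of vessels, and it had a log2 fold change of 1.02 ± 0.21 in the authors' deposited table. The laminin chain gene Lamb1 had 0.63 ± 0.18 and the second nidogen, Nid2, 0.83 ± 0.22 in the authors' deposited table. Col18a1, the relative of Col15a1 that gives rise to endostatin, had 0.64 ± 0.18 in the authors' deposited table. Pxdn, which crosslinks type IV collagen, had 0.49 ± 0.16 in the authors' deposited table. Lama1, Lama2, Lama5, Lamc1, Hspg2 and Agrn were among the 21 genes of the list in none of the tables.

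Of 44 collagen genes, 7 were higher in cHet and 0 lower. This is a share of 15.9%, but 5 of the 7 are members, chosen from this comparison. Without the members the share was 2 of 39 (5.13%), beside 3.12% of all tested genes, and these 2 were Col18a1 and Col5a2. Col5a2, a fibrillar chain that helps set the width of collagen fibrils, had 0.84 ± 0.27 in the authors' deposited table. Col1a1 and Col1a2, the chains of the main fibrillar collagen of connective tissue, were not listed. Among 33 genes of collagen modification, secretion and crosslinking, such as P4ha1, Plod1, Serpinh1 and Lox, 0 were listed in any table. In small leucine-rich and other proteoglycans, Lum, which encodes lumican, had 0.73 ± 0.25 in the authors' deposited table and was the other listed gene of 27 beside Bgn.

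Lists of matrix binding and turnover held few listed genes, where 3.12% of all tested genes were higher in cHet than in cKO and 4.14% lower. Of 33 matrix receptors 1 was higher in cHet, Itga11, a collagen-binding integrin chain, with 0.93 ± 0.21 in the authors' deposited table. Among 35 elastic fibre and matrix glycoprotein genes 1 was higher, Vtn, which encodes vitronectin and is also a pericyte marker, with 0.89 ± 0.25 in the authors' deposited table. Matrix proteases and their inhibitors had 1 higher and 1 lower of 46, Adamts19 at 0.77 ± 0.25 and Mmp24 at -0.79 ± 0.21 in the authors' deposited table. Of 20 connexins, Gjd2, the neuronal connexin 36 gene, was listed beside Gjb2 and went the other way, with -2.15 ± 0.46 in cHet over cKO in the authors' deposited table. Gjd2 was also listed in cHet over WT, where it was lower at -1.99 ± 0.46.

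Within the TGF-beta pathway, which drives matrix production in fibroblasts, 5 of 20 genes were higher in cHet than in cKO (25.0%) and 0 lower. Over all tested genes these shares were 3.12% and 4.14%, but this list too was chosen with earlier results known. The 5 genes were Eng at 0.89 ± 0.26, Ski at 0.61 ± 0.14 and Tgfb2 at 0.60 ± 0.18, with Smad6 at 0.57 ± 0.17 and Smad3 at 0.54 ± 0.13 in the authors' deposited table. Smad3 was also listed as higher in cHet over WT, at 0.49 ± 0.13. Tgfb2 is a ligand, Eng a co-receptor of endothelium, Smad3 a signal carrier, and Smad6 and Ski inhibitors of the wider pathway. The ligand genes Tgfb1 and Tgfb3 and the receptor genes Tgfbr1 and Tgfbr2 were not listed.

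**Figure D3:**
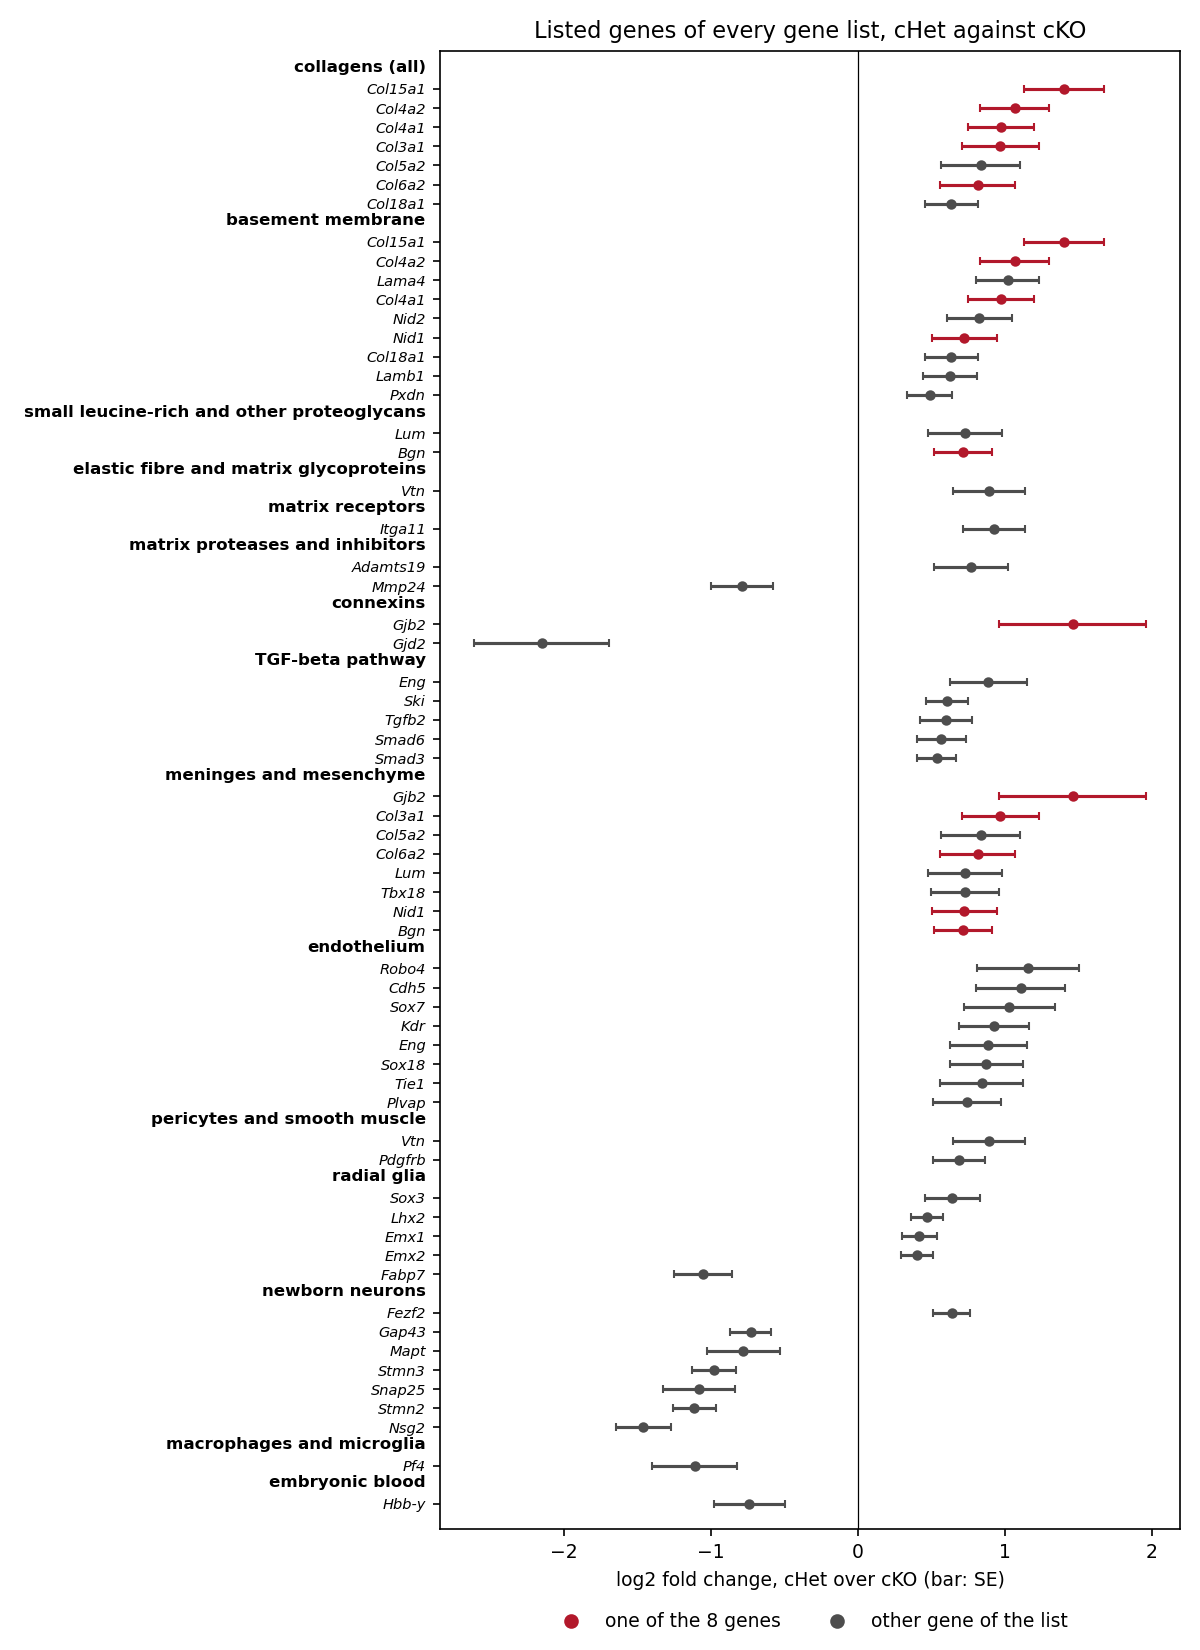
Points are log2 fold changes in cHet over cKO with their SE for each gene that was listed, in every list that holds one, red for the 8 genes and grey for others; genes that belong to several lists are drawn in each. Values run from -2.15 for Gjd2 to 1.46 for Gjb2, with lower genes in the protease, connexin, radial glia, neuron, macrophage and blood lists.

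Some markers of the cell types that make this matrix were also higher in cHet than in cKO, while most genes of each marker list were not listed. Of 28 endothelial genes 8 were higher in cHet than in cKO (28.6%) and 0 lower, beside 3.12% and 4.14% of all tested genes. The 8 included Robo4 at 1.16 ± 0.34 and Cdh5, the adhesion molecule of endothelial junctions, at 1.11 ± 0.30 in the authors' deposited table. Of 20 pericyte and smooth muscle genes 2 were higher, Vtn as above and Pdgfrb, a receptor gene of pericytes and fibroblasts, at 0.69 ± 0.18 in the authors' deposited table. Of 36 meningeal and mesenchymal genes 8 were higher, 5 of which are members, and the other 3 were Col5a2, Lum and Tbx18, a mesenchymal transcription factor gene at 0.73 ± 0.23 in the authors' deposited table. Without the members 3 of 31 were higher (9.68%, beside 3.12% of all tested genes). The meningeal regulators Foxc1, Foxd1 and Twist1, the retinoic acid enzyme gene Aldh1a2 and Pdgfra were not listed, nor were Pecam1 and Cldn5 of endothelium. Levels of these markers were not analysed here and their part in the members' values was not tested. The marker lists were also chosen with earlier results of these data known, so their shares are a description.

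Lists of other cells were counted in the same way, beside 3.12% higher and 4.14% lower of all tested genes in cHet over cKO. Of 10 choroid plexus genes 0 were listed. Of 15 macrophage genes 1 was lower in cHet, Pf4 at -1.11 ± 0.29, and of 11 embryonic blood genes 1 was lower, Hbb-y at -0.74 ± 0.24 in the authors' deposited table. The radial glia list had 4 of 15 genes higher (26.7%) and 1 lower, and the newborn neuron list 1 of 16 higher (6.25%) and 6 lower (37.5%) in cHet than in cKO. These 2 lists also held genes listed in cHet over WT, where 1.60% of all tested genes were listed. There the radial glia list had 4 higher and 1 lower, and the newborn neuron list 1 higher and 5 lower.

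**Figure D4:**
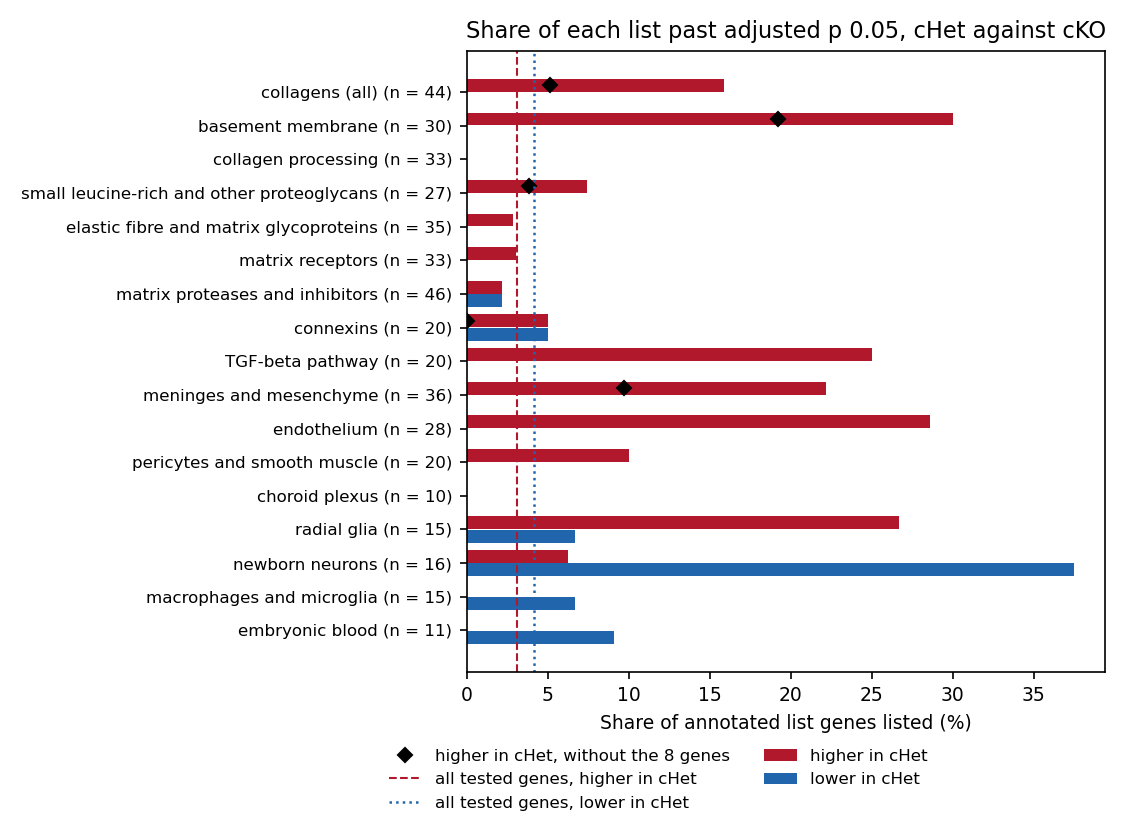
Bars give the share of each list's annotated genes that were listed as higher (red) or lower (blue) in cHet than in cKO, with the number of annotated genes in brackets; dashed and dotted lines mark the shares over all tested genes, 3.12% and 4.14%. Black diamonds mark the share of higher genes without the 8 members, which were chosen from this comparison, in the lists that hold any of them. It is 19.2% for basement membrane, beside 28.6% for endothelium and 25.0% for the TGF-beta pathway, which hold no member, and collagen processing and choroid plexus genes have no bar. All lists were chosen with earlier results of these data known, so the shares are a description.

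Genes listed, like the 7 members other than Gjb2, as higher in cHet than in cKO and in no other table were ranked by how close their fold change was to the median of the 8 genes. The closest 5 were Cyp1b1 at 0.97 ± 0.24, Vwf at 0.97 ± 0.27, Piezo2 at 0.97 ± 0.28, Gimap4 at 0.96 ± 0.31 and Mmrn1 at 1.02 ± 0.28 in the authors' deposited table. Vwf encodes von Willebrand factor of endothelium and platelets, and Mmrn1 multimerin, another protein of endothelium and platelets. Cyp1b1, Piezo2 and Gimap4 were not assigned to a cell type, so nothing is read from the 5 as a set. The likeness is of 1 fold change over 2 groups of 3 libraries.

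The genes differ in length and in the sequence around their starts. Merged exons spanned 2406 bases in Gjb2 and between 6099 in Bgn and 9816 in Col3a1 for the matrix genes, with a median of 6781 over the 8. The median was 5575.5 over 416 protein-coding genes higher in cHet, 3067 over 481 lower ones and 3498 over all 21951. Median length thus differed between higher and lower genes of the whole comparison, and its part in the members' values was not tested. No transcript of another gene matched a member at 95% identity over 300 bases. Annotated antisense genes overlap Col15a1, Col4a1, Col4a2 and Nid1, and where strand is unknown their reads cannot be told apart from the members'.

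Base composition around the start varied among the members from 37.7% G and C in Col3a1 to 74.0% in Col4a1, in windows of 250 bases before to 50 after each RefSeq start. The median was 64.3% over 9 member windows (Col6a2 has 2 starts), 63.3% over 421 windows of genes higher in cHet, 58.7% over 485 windows of genes lower in cHet and 52.7% over all 32851. The Gjb2 window, most of which is shown above, had 70.0%. The bases before the Col3a1 start, on the plus strand at chr1:45311288-45311537 (GRCm38.p6, RefSeq), are shown for contrast as the window lowest in G and C. They carry the TATAAA match in capitals, 117 bases before the start.
Col3a1: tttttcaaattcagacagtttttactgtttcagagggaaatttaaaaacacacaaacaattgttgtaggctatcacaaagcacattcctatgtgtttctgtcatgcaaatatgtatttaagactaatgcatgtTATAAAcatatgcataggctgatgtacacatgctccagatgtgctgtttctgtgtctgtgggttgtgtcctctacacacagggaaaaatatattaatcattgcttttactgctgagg

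The 5 motifs listed here were searched on both strands, chosen after the member promoters had been read. CCCTCCCC was found in windows of Col4a1, Col4a2, Col6a2, Nid1 and Bgn, that is in 6 of 9 windows, of which those of Col4a1 and Col4a2 hold the same bases. It was in 20.0% of windows of genes higher in cHet and in 10.8% of all windows. The GC box GGGCGG was in 7 of 9 windows, beside 67.5% of those of genes higher in cHet and 35.7% of all. CCAAT was in 3 of 9 (37.4% of all), TATAAA in 1 of 9 (13.6% of all), and CCCTTCCC in 0 of 9 (5.14% of all). The window of Col15a1 held no match to any of these letters, and its RefSeq start lies before the GENCODE start given above.

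**Figure D5:**
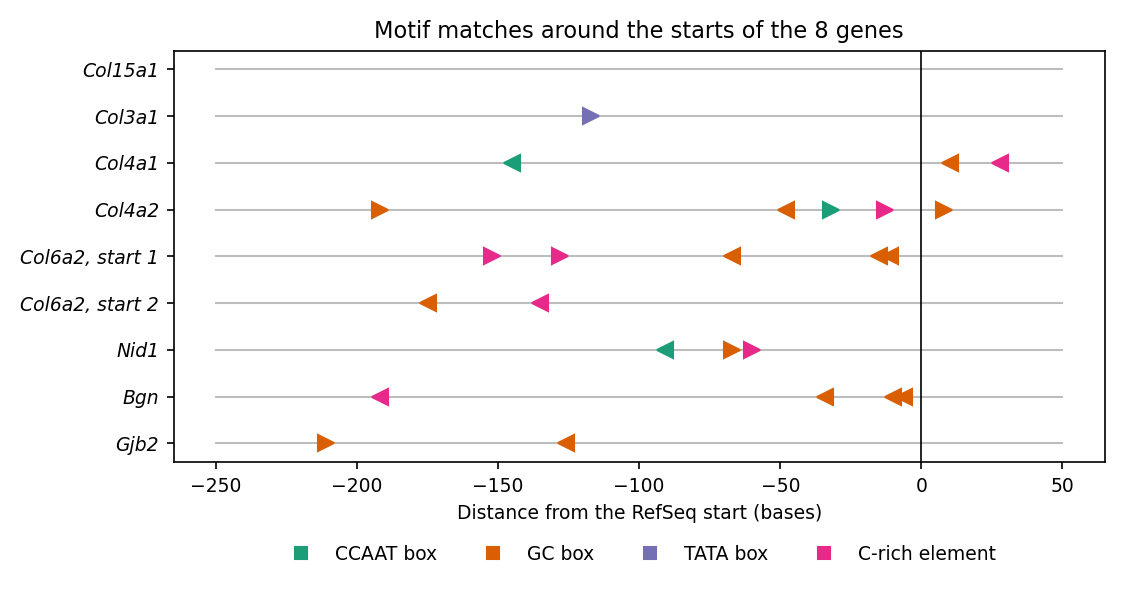
Each line is a promoter window by distance from the RefSeq start, and each arrowhead the first base of a motif match, pointing right where the motif is on the gene's own strand. GC boxes appear in 7 of the 9 windows and the C-rich element CCCTCCCC in 6, while Col15a1 has no match.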

How the data were processed

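Poly(A) RNA of 9 libraries was sequenced, 3 each from cHet, cKO and WT cortices. The submitters' processing notes name cutadapt, featureCounts and DESeq2 as the authors' tools and mm10 as the build. For aligner, strandedness, annotation and versions nothing is stated in these sources. The authors deposited log2 fold changes with SE, a statistic (a score equal to fold change over SE) and adjusted p-values. The headers do not state the log base; base 2 was assumed because the authors used DESeq2. Each table lists genes under 0.05. The sign matched the direction word in every row. Fold changes were read as the group named first in each comparison over the other; the tables hold no known change that would reveal a swap.

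The members and gene lists were chosen with earlier results of these data known. Unadjusted p-values came from the statistics, and the number of tested genes was recovered from the Benjamini-Hochberg values, a step tested on simulated data. Positions and exons are from GENCODE M21 (GRCm38, the assembly of mm10), and 248, 4 and 970 identifiers of the 248, 4 and 971 rows of the tables for cHet over WT, cKO over WT and cHet over cKO were found there. RefSeq promoters (GRCm38.p6) were matched by symbol for all 8 genes. The 17 lists hold 409 annotated genes; members that missed the authors' count filters are unknown, so list shares are over annotated genes. Ratio intervals are 95% normal intervals from the SE. Named genes were the 8 members, listed genes of these lists, genes listed like Gjb2, the 5 with the largest increase and the 5 closest to the members' median. Alternatives were stricter thresholds, adjustment over all comparisons and lists without the members. Calculations ran in Python 3.11.15 with SciPy 1.17.1, pandas 2.3.3 and NumPy 2.4.6, figures in matplotlib 3.10.9, and sequence matches in BLAST 2.17.0. With depth unknown and 3 libraries per group, the SE is the sole measure of precision.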

Additional observations from a re-analysis of the deposited data

How the results depend on the processing

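At an adjusted p under 0.01, 3 of the 8 genes stayed listed in cHet over cKO (Col15a1, Col4a1 and Col4a2), and 0 in cKO over WT. With an absolute log2 fold change of at least 1, 3 were left in cHet over cKO, and with at least 0.5 all 8. Adjusted over the 3 comparisons together, at least 5 stayed listed in cHet over cKO, and Gjb2 kept its listing in cKO over WT. These adjusted p-values are upper bounds for each gene. Col6a2 (adjusted p at most 0.099), Gjb2 (0.16) and Nid1 (0.073) are therefore neither shown to stay listed nor to drop out. Genes higher in cHet at an adjusted p under 0.01 numbered 3 for collagens, 4 for basement membrane, 0 for meninges and mesenchyme and 1 for endothelium. The share of all tested genes under 0.01 was not calculated. Nothing is therefore read from these counts, or from those of the members at that threshold, beyond their dependence on the threshold. Without the 8 members the counts were 2, 5 and 3 for the first 3 of these lists, and 8 for endothelium. The median log2 fold change of the members was 0.97 without Gjb2, and the mean weighted by the SE was 0.94. No paired analysis was possible because the tables hold no values per library, and leaving out replicates was not run for the same reason.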

Other observations

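The 5 other genes with the largest increase in cHet over cKO (log2 fold change ± SE) were Cebpb at 1.52 ± 0.40, Enpp3 at 1.32 ± 0.45, Fosl2 at 1.26 ± 0.29, Tbx15 at 1.23 ± 0.40 and Robo4 at 1.16 ± 0.34 in the authors' deposited table. Tbx15 encodes a transcription factor of mesenchyme and Robo4 a receptor of endothelium. Cebpb, Enpp3 and Fosl2 were not assigned to a cell type, so nothing is read from the 5 as a set. With Gjb2, Col15a1 and Col4a2, the 5 genes are among the 14 of 417 genes higher in cHet whose log2 fold change was at least 1.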
